A study of Mus musculus with 2 samples.

Results

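The Hox genes are transcription factor genes with a homeobox that sit in 4 clusters. All 39 of them among the 32285 features counted were taken, by symbols made of Hoxa, Hoxb, Hoxc or Hoxd and a number, so that antisense transcripts stayed out. The Hoxa cluster holds 11 of them on chr6, the Hoxb cluster 10 on chr11, the Hoxc cluster 9 on chr15 and the Hoxd cluster 9 on chr2. The number in each name is the gene's paralog group, which gives its place in the cluster, and genes that share a number in different clusters are copies of one ancestral gene. In the embryo, low-numbered genes are switched on first and towards the head, and high-numbered genes later and towards the tail, so that a set of Hox genes marks position along the body and along the gut. Adult cells often keep part of that code, in epithelium and in the connective tissue below it. Polycomb proteins hold unused Hox genes silent, Trithorax proteins keep used ones active, and Pbx, Meis and Pknox proteins bind DNA together with Hox proteins.

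The study compared the colon of male Pink1 knockout (KO) mice with that of wild-type (WT) mice, all C57BL/6 and 15 weeks old. Pink1 encodes a mitochondrial kinase that marks damaged mitochondria for removal. Nuclei of 3 mice per genotype were sorted on a DNA dye, pooled and read as 1 droplet library of 3′ ends with unique molecular identifiers (UMIs), with 10000 nuclei aimed for in each. The KO library has the batch label 2 and the WT library 1, so genotype, batch and the mice pooled cannot be told apart, and no test between genotypes is possible. Intervals in brackets are 95% intervals for counting error alone.

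The KO library held 12230 barcodes and 22446326 UMIs, and the WT library 8924 barcodes and 16997995 UMIs. After filters and doublet removal 10966 KO and 8256 WT nuclei remained, with medians of 1574.5 and 1609 UMIs. Of the barcodes, 28 occur in both libraries, 21 of them among the nuclei kept. Pink1 itself had 115 UMIs in KO and 158 in WT nuclei, or 6.20 against 10.7 CPM (UMIs of a gene per 1000000 UMIs of nuclear genes in the same nuclei), a ratio of 0.58 (0.45 to 0.74). A 3′ count does not show which part of a gene was deleted. Cells were clustered without the Hox genes and their antisense transcripts, and clusters were called after marker genes, as in colonocyte-like or crypt-base-like. In the following, class names stand without "-like".

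The coding strands of 4 promoters are shown here because these genes belong to the 2 sets of Hox genes that the epithelium kept apart. The windows of Hoxb8 and Hoxd4 have the most motif matches of all Hox windows and so are not typical of their set. Each run holds 250 bases before and 50 bases after a transcript start from RefSeq on GRCm38.p6, and all 4 lie on the plus strand. Capitals mark TTTAT or its reverse complement ATAAA, the core letters bound in vitro by Cdx proteins, which set gut position, and by high-numbered Hox proteins. Hoxb8 (chr11:96281655-96281954) and Hoxd4 (chr2:74721728-74722027) belong to the set of groups 3 to 8. Hoxd10 (chr2:74691641-74691940) and Hoxd13 (chr2:74667975-74668274) belong to the set of groups 10 to 13.
Hoxb8: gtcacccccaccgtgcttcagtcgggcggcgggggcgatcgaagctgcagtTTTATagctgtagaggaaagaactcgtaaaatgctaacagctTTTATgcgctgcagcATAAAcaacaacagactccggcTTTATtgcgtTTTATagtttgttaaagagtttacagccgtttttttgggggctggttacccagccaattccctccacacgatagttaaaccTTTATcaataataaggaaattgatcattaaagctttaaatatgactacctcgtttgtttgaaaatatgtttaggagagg
Hoxd4: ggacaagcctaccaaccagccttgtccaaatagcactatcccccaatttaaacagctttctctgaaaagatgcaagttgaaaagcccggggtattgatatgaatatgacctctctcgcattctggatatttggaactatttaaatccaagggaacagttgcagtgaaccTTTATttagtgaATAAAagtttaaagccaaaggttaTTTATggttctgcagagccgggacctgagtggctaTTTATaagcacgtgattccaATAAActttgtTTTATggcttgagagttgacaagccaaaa
Hoxd10: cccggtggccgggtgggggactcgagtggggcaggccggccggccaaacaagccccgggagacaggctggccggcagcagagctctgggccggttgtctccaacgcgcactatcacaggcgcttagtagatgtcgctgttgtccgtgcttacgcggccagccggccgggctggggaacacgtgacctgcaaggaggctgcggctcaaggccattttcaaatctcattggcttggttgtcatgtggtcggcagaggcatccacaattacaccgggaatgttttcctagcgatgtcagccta
Hoxd13: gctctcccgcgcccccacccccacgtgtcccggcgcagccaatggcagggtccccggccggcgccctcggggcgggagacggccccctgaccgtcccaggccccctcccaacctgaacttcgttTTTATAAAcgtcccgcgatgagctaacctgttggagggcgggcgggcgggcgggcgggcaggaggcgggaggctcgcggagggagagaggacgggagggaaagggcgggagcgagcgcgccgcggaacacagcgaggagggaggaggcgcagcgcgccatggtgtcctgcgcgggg
The Hoxb8 and Hoxd4 windows hold 6 matches each, the Hoxd13 window 2 that overlap, and the Hoxd10 window 0. Of the other windows of these sets, that of Hoxb4 holds 0 matches, that of Hoxd3 1, those of Hoxd11 2 and 0 and that of Hoxd12 0, so the count does not divide the sets. CpG pairs number 13 in the Hoxb8 window, 4 in that of Hoxd4, 22 in that of Hoxd10 and 37 in that of Hoxd13. Windows were at hand for 22 of the 39 genes, 24 in all, of which 9 (37.5%) hold a match, against 13143 of 32851 windows (40.0%) over all genes. A match is a run of letters and was not tied to binding.

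Hox transcripts were found in most nuclei of the colon. All members together had 27995 UMIs in KO and 24063 in WT nuclei, which is 1509 and 1624 CPM, and 78.3% of KO and 80.3% of WT nuclei had at least 1 Hox UMI. Of the 39 members, 37 had a UMI in KO and 36 in WT nuclei. Over both libraries 16 had at least 1000 UMIs, 27 at least 50, 5 had 20 to 49, 5 had 1 to 19, and 2, Hoxc12 and Hoxc13, had 0. A count of 0 allows up to 0.162 CPM in KO and 0.202 in WT nuclei (3 counts).

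The Hoxb and Hoxa clusters gave most of these UMIs. Hoxb genes made up 50.6% of Hox UMIs in KO and 45.8% in WT nuclei, Hoxa genes 35.0% and 41.4%, Hoxd genes 13.7% and 12.5%, and Hoxc genes 0.639% and 0.291%. Several genes at or near the ends of the clusters had few UMIs. Hoxb1 had 1 UMI in KO and 2 in WT, Hoxd1 1 and 0, and Hoxd12 16 and 11. Within the Hoxb cluster Hoxb9 had the most, with 4417 UMIs in KO and 2996 in WT, and was detected in 28.3% of KO and 26.2% of WT nuclei. Over both libraries Hoxb9 stood first of all members with 222 CPM, followed by Hoxb4 with 162, Hoxa9 with 147, Hoxb5 with 134 and Hoxa3 with 123. Per kilobase of exon the order was Hoxb9 with 86.3 CPM, Hoxb4 with 63.0, Hoxa5 with 48.8, Hoxb5 with 48.1 and Hoxb6 with 35.9. A count of 3′ ends need not grow with length, so the second order can favour short genes. Annotated Hox genes overlap, so some UMIs could belong to a neighbour. In the GENCODE M21 annotation 19 members overlap another feature and 20 do not. Hoxd3 and Hoxd4 share 17232 bases on the same strand, and the span of Hoxa3 contains Hoxa4, Hoxa5 and Hoxa6.

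**Figure D1:**
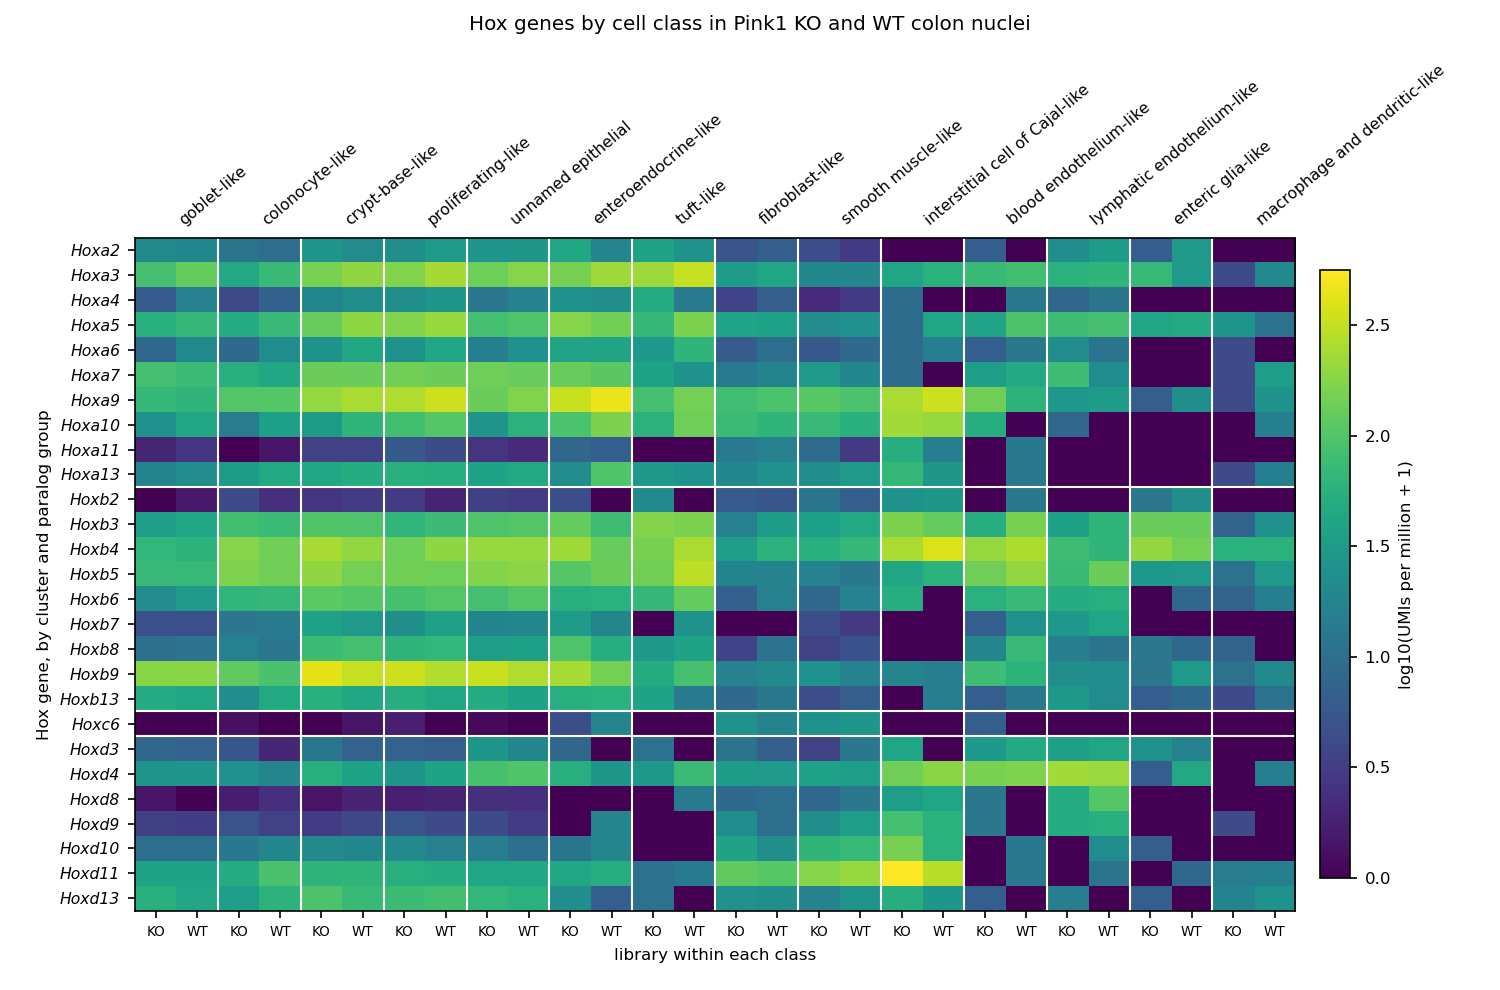
Level of each Hox gene with at least 50 UMIs (rows, by cluster and paralog group) in each class of nuclei (columns, KO left of WT), as log10 of CPM plus 1. Epithelial classes hold Hoxa and Hoxb genes throughout, stroma and muscle hold Hoxd9 to Hoxd11 and Hoxc6, and glia hold Hoxb3 and Hoxb4.

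The summed Hox level differed between compartments. The epithelium had 1661 Hox CPM in KO and 1758 in WT nuclei, the endothelium 1077 and 1265, stroma and muscle 847 and 850, and enteric glia 668 and 621. Immune nuclei, which in the adult gut are not known to keep a positional Hox code, had 281 in KO and 281 in WT and are given as the level that free RNA in the droplets could reach. Median UMIs per nucleus in KO and WT were 1654 and 1693.5 in epithelium, 1307 and 1326.5 in stroma and muscle, 992 and 1059 in endothelium, 1598 and 2034 in glia, and 975 and 954 in immune nuclei.

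The share of Hox UMIs that came from paralog groups 9 to 13 ordered the compartments. It was 62.7% (60.4 to 65.0) in KO and 57.8% (54.8 to 60.8) in WT stroma and muscle, and 40.0% and 38.8% in epithelium. Endothelium had 21.6% in KO and 13.5% in WT, and glia 5.13% and 10.8%, but KO glia had 18.1% without doublet removal, near KO endothelium. Taken as whole compartments, stroma and muscle thus lay above epithelium, and epithelium above endothelium and glia, in both libraries. The epithelial share is an average over unlike clusters, and the order does not hold for each of them. Epithelial clusters 0 and 3 had 64.9% and 65.0% in KO and 62.4% and 59.6% in WT, not below stroma and muscle. Epithelial cluster 1 had 20.9% in KO and 20.5% in WT. WT glia and WT endothelium did not differ beyond their counting intervals, and immune nuclei had 26.0% in KO and 35.1% in WT.

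**Figure D2:**
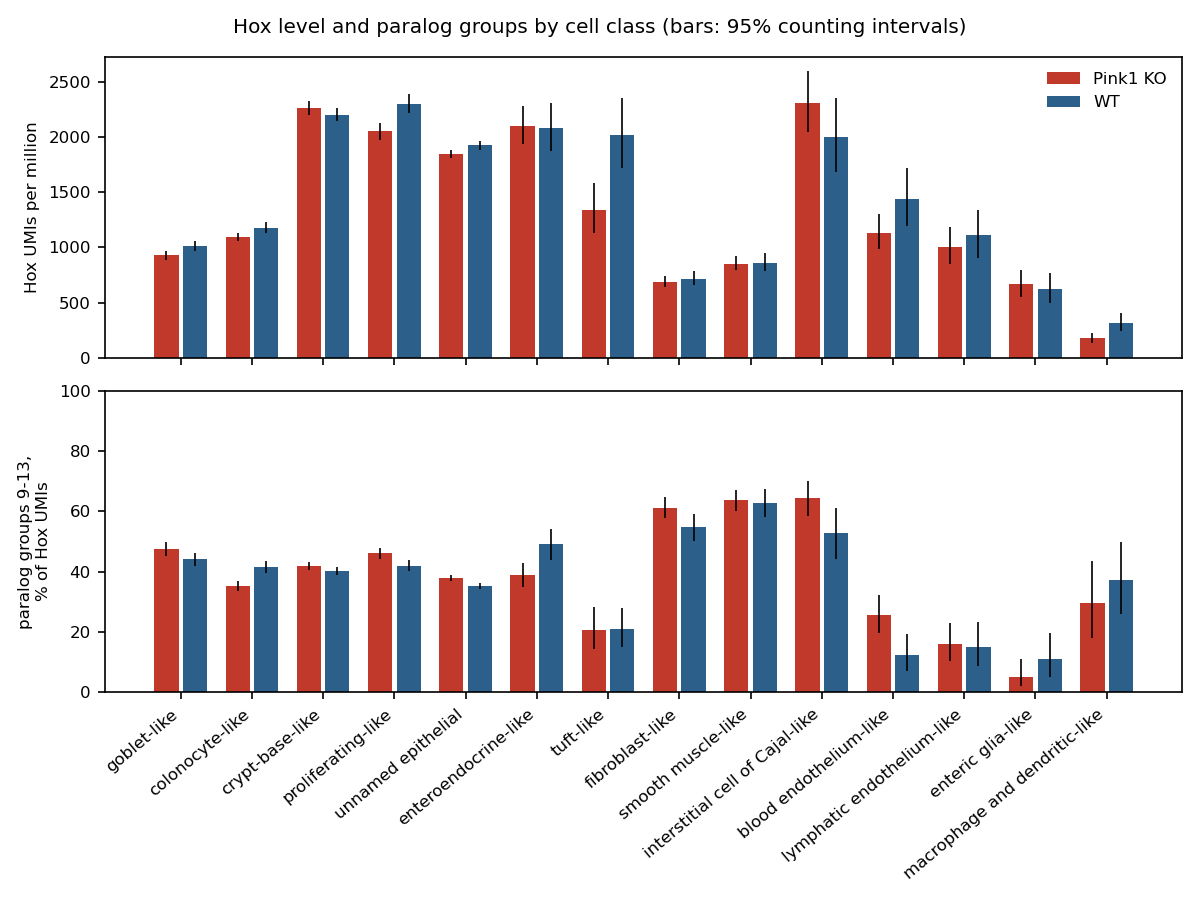
Hox CPM (top) and share of Hox UMIs from paralog groups 9 to 13 (bottom) by class of nuclei, with KO and WT bars side by side and 95% counting intervals. Crypt-base, proliferating and enteroendocrine nuclei and interstitial cells of Cajal had high summed levels in both libraries, as tuft nuclei had in WT, and fibroblasts, smooth muscle and interstitial cells the highest shares of groups 9 to 13.

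In the epithelium the summed level differed by class. Crypt-base nuclei, the class with stem cell markers, had 2261 CPM in KO and 2201 in WT, proliferating nuclei 2050 and 2299, and enteroendocrine nuclei, the hormone-secreting cells, 2100 and 2082. Goblet nuclei, which make mucus, had 930 and 1010, and colonocytes, the absorptive cells, 1095 and 1180. Crypt-base and proliferating nuclei were thus about 2 times as high as goblet nuclei and colonocytes in each library. Tuft nuclei, a chemosensory class, had 1340 in KO and 2015 in WT, with 54 and 43 nuclei.

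Hoxb9 was the most epithelial of the abundant members. Of its UMIs 98.5% came from epithelium, where 35.1% of KO and 30.9% of WT nuclei had one, against 2.68% and 1.16% of immune nuclei. Its level was highest in crypt-base nuclei, with 434 CPM in KO and 321 in WT, and in proliferating nuclei, with 343 and 267. Colonocytes had 119 and 89.1 and goblet nuclei 181 and 182. Enteroendocrine nuclei had more Hoxa9 than Hoxb9 by CPM, with Hoxa9 at 325 in KO and 461 in WT and Hoxb9 at 243 and 150. The exons of Hoxa9 are the longer in sum, but a 3′ count need not grow with length, and this order is of counts alone. Tuft nuclei had Hoxa3 at 219 CPM in KO and 323 in WT, and Hoxb5 at 143 and 299.

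Outside the epithelium, Hoxd11 was the leading member of stroma and muscle by CPM. It had 168 CPM in KO and 161 in WT there, against 11.2 and 12.7 in immune nuclei, and 28.3% of its UMIs came from that compartment. Hoxa9 had 99.9 and 106, Hoxa10 81.5 and 66.9, and Hoxd10 53.5 and 42.5. Each of these 4 genes, of groups 9 to 11, stood well above its immune level, which was 11.2 in KO and 22.8 in WT for Hoxa9, 3.74 and 12.7 for Hoxa10 and 3.74 and 0 for Hoxd10. Hoxb5 had 17.5 in KO and 16.5 in WT, and Hoxb9 had 18.9 and 17.3. Their immune levels were 26.2 and 22.8 for Hoxb5 and 24.3 and 12.7 for Hoxb9. Neither gene is told apart from its immune level in that compartment.

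The class named interstitial cells of Cajal, the pacemaker cells of gut muscle, is cluster 25 alone. Of its 6 markers 3 were at least 2-fold up, with a mean log2 of 2.13, and pericyte markers came next at 1.56. The name is therefore tentative. These cells had the highest Hoxd11 level of all classes, 560 CPM in KO and 291 in WT, from 67 and 21 UMIs. They also had Hoxb4 at 251 and 402, Hoxa9 at 251 and 347, Hoxa10 at 234 and 208 and Hoxd10 at 150 and 55.5. Smooth muscle had Hoxd11 at 179 in KO and 212 in WT and Hoxa10 at 70.7 and 54.4, and fibroblasts had Hoxd11 at 119 and 108 and Hoxa10 at 73.4 and 61.4. The interstitial cells thus held Hoxb4 beside the high-numbered Hoxd genes. Over all fibroblasts Hoxb4 had 32.8 in KO and 57.1 in WT, and in smooth muscle 55.2 and 66.1, near the 74.8 and 48.2 of immune nuclei. The fibroblast clusters differed among themselves. The small clusters 21 and 27 had Hoxb4 at 151 and 156 in KO and at 130 and 235 in WT, beside Hoxd11 at 122 and 91.3 in KO and 144 and 109 in WT, from 9 to 16 Hoxb4 UMIs per cluster and library. Fibroblast cluster 12 had Hoxb4 at 5.18 in KO and 30.7 in WT.

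Hoxc genes were found mostly outside the epithelium. They made up 7.83% of Hox UMIs in KO and 5.10% in WT stroma and muscle, 16.2% and 7.23% in glia, and 0.0586% and 0.0355% in epithelium. Hoxc6 placed 88.8% of its UMIs in stroma and muscle and 10.0% in epithelium. Hoxc10, with 15 UMIs in KO and 1 in WT, and Hoxc11, with 6 and 1, had all of theirs in stroma and muscle. Hoxc4 was shared between glia, with 46.9% of its UMIs, and stroma and muscle, with 42.9%. Enteric glia, the support cells of the gut's nerve plexus, had Hoxb4 at 200 CPM in KO and 150 in WT, Hoxb3 at 131 and 127, and Hoxc4 at 103 and 37.4, the last from 18 and 5 UMIs. Hoxa7 and Hoxa10 had 0 UMIs in glia of both libraries, among 96 KO and 60 WT nuclei.

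Endothelium was led by group 4 and 5 genes. Lymphatic endothelium had Hoxd4 at 231 CPM in KO and 218 in WT, and Hoxd8 at 49.0 and 104. Blood endothelium had Hoxb4 at 206 and 258, Hoxd4 at 156 and 164, and Hoxb5 at 139 and 199. Of all Hoxd8 UMIs 23.8% came from endothelium and 42.5% from stroma and muscle. Hoxd4 levels in both endothelial classes were well above those of immune nuclei, which had 9.35 in KO and 10.1 in WT.

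Within the epithelium the members fell into 2 sets that were seldom high in the same cluster. The first set, chosen after the values were seen, holds 8 genes of groups 3 to 8: Hoxb3 to Hoxb8, Hoxd3 and Hoxd4. The second, chosen in the same way, holds 5 genes of groups 10 to 13: Hoxb13 and Hoxd10 to Hoxd13. The other 26 members are in neither. The share of the second set in the UMIs of both sets was 90.4% in KO and 90.8% in WT in cluster 0, led by Gk and Gsdmc3. It was 89.1% and 88.3% in crypt-base cluster 3 with Fut9 and Smoc2, 82.6% and 90.4% in colonocyte cluster 7 with Aqp8 and Car4, and 85.4% and 80.5% in goblet cluster 9 with Mptx1 and Reg4. These 4 clusters mostly used the second of the 2 sets.

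Another 4 clusters used almost only the first of the 2 sets. The share of the second set was 1.46% in KO and 2.09% in WT in cluster 1, led by Plet1 and Meg3, and 1.67% and 2.52% in crypt-base cluster 2 with Dmbt1 and Ntrk2. It was 2.40% and 0.867% in cluster 4, led by Apol10a and Hsd3b3 and including the antimicrobial genes Reg3b and Reg3g, and 1.05% and 1.84% in colonocyte cluster 6 with Slc10a2. Colonocyte cluster 11, with Emp1 and Slc9a3, lay close by at 5.74% and 11.9%. Goblet cluster 5, with Fcgbp and Clca1, had 18.7% and 14.5%, and the proliferating clusters 8 and 13 had 22.6% and 15.5%, and 37.1% and 38.1%. Small tuft and enteroendocrine clusters lay low or between, with the tuft cluster at 8.70% and 2.50%. In all, 8 of the epithelial clusters with at least 100 nuclei in each library were at most 10% or at least 80% in both libraries. The acute-phase gene Saa1 was among the leading genes of cluster 7, and Slfn4 among those of cluster 5.

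**Figure D3:**
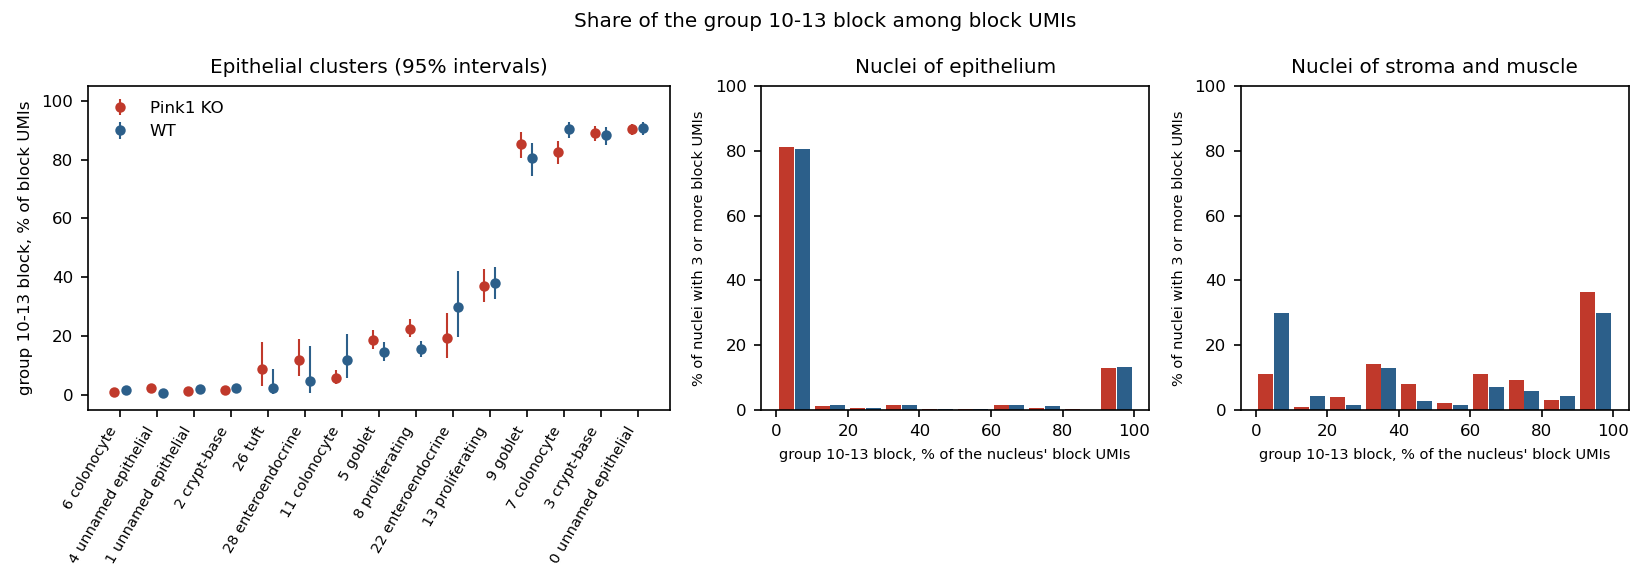
Left, share of the group 10 to 13 set in the UMIs of both sets for each epithelial cluster, KO left of WT, with 95% intervals. Middle and right, the same share in single nuclei with at least 3 such UMIs. Epithelial nuclei pile up at 0 and at 100%, and nuclei of stroma and muscle spread between. In stroma and muscle the first set was, after thinning, little more frequent than in immune nuclei in KO, and more so in WT.

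Crypt-base nuclei are described first, because clusters 3 and 2 were both named from crypt-base markers, with 9 of 9 of them at least 2-fold up in cluster 3 and 5 of 9 in cluster 2. In KO nuclei Hoxb4 had 12.4 CPM in cluster 3 and 469 in cluster 2, a ratio of 0.026 (0.015 to 0.044), and in WT nuclei 7.45 and 398, a ratio of 0.019 (0.0085 to 0.036). Hoxb8 had 3 UMIs in cluster 3 and 175 in cluster 2 of KO nuclei, and 3 and 199 in WT nuclei. Hoxd4 had 4.14 and 98.1 CPM in KO and 3.31 and 75.5 in WT. Cluster 3 held almost no transcripts of these group 4 and 8 genes. Hoxb3, Hoxb5, Hoxb6 and Hoxb7 had ratios of 0.026, 0.047, 0.043 and 0.035 in KO nuclei and 0.040, 0.049, 0.044 and 0.028 in WT nuclei.

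The second set ran the other way. Hoxd11 had 119 CPM in cluster 3 and 3.24 in cluster 2 of KO nuclei, a ratio of 36.7 (14.0 to 137), and 116 and 5.15 in WT nuclei, a ratio of 22.5 (10.1 to 62.5). Hoxd13 had 185 and 7.30 in KO, a ratio of 25.3 (13.1 to 56.0), and 133 and 9.43 in WT, a ratio of 14.1 (7.69 to 28.9). Hoxd10 had 45 UMIs in cluster 3 and 1 in cluster 2 of KO nuclei, and 40 and 3 in WT nuclei. Hoxb13 differed less, by 6.58 times (3.98 to 11.5) in KO and 3.51 times (2.17 to 5.91) in WT nuclei. Hoxb9, which lies between Hoxb8 and Hoxb13 in its cluster, hardly differed, with 426 and 442 CPM in KO, a ratio of 0.96 (0.85 to 1.09), and 309 and 334 in WT, a ratio of 0.93 (0.80 to 1.07). The change of use along the Hoxb cluster thus fell on either side of a gene that both crypt-base clusters used at like levels.

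Against the background of all genes, the counts of members were high. The pair of clusters was picked, and the sets were chosen after the values were seen. These counts are therefore a description and not a test. Of 21 members with at least 20 UMIs, 4 were at least 1.5-fold higher in cluster 3 in both libraries, against 5.69% of all genes measured, and 7 were at least 1.5-fold lower, against 5.36%. The 4 are Hoxb13, Hoxd10, Hoxd11 and Hoxd13, and the 7 are Hoxb3 to Hoxb8 and Hoxd4. Hoxa genes took no common side in both libraries. Hoxa5 had a ratio of 2.51 in KO and 1.24 in WT nuclei, Hoxa9 0.90 and 0.63, and Hoxa13 1.54 and 0.90.

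**Figure D4:**
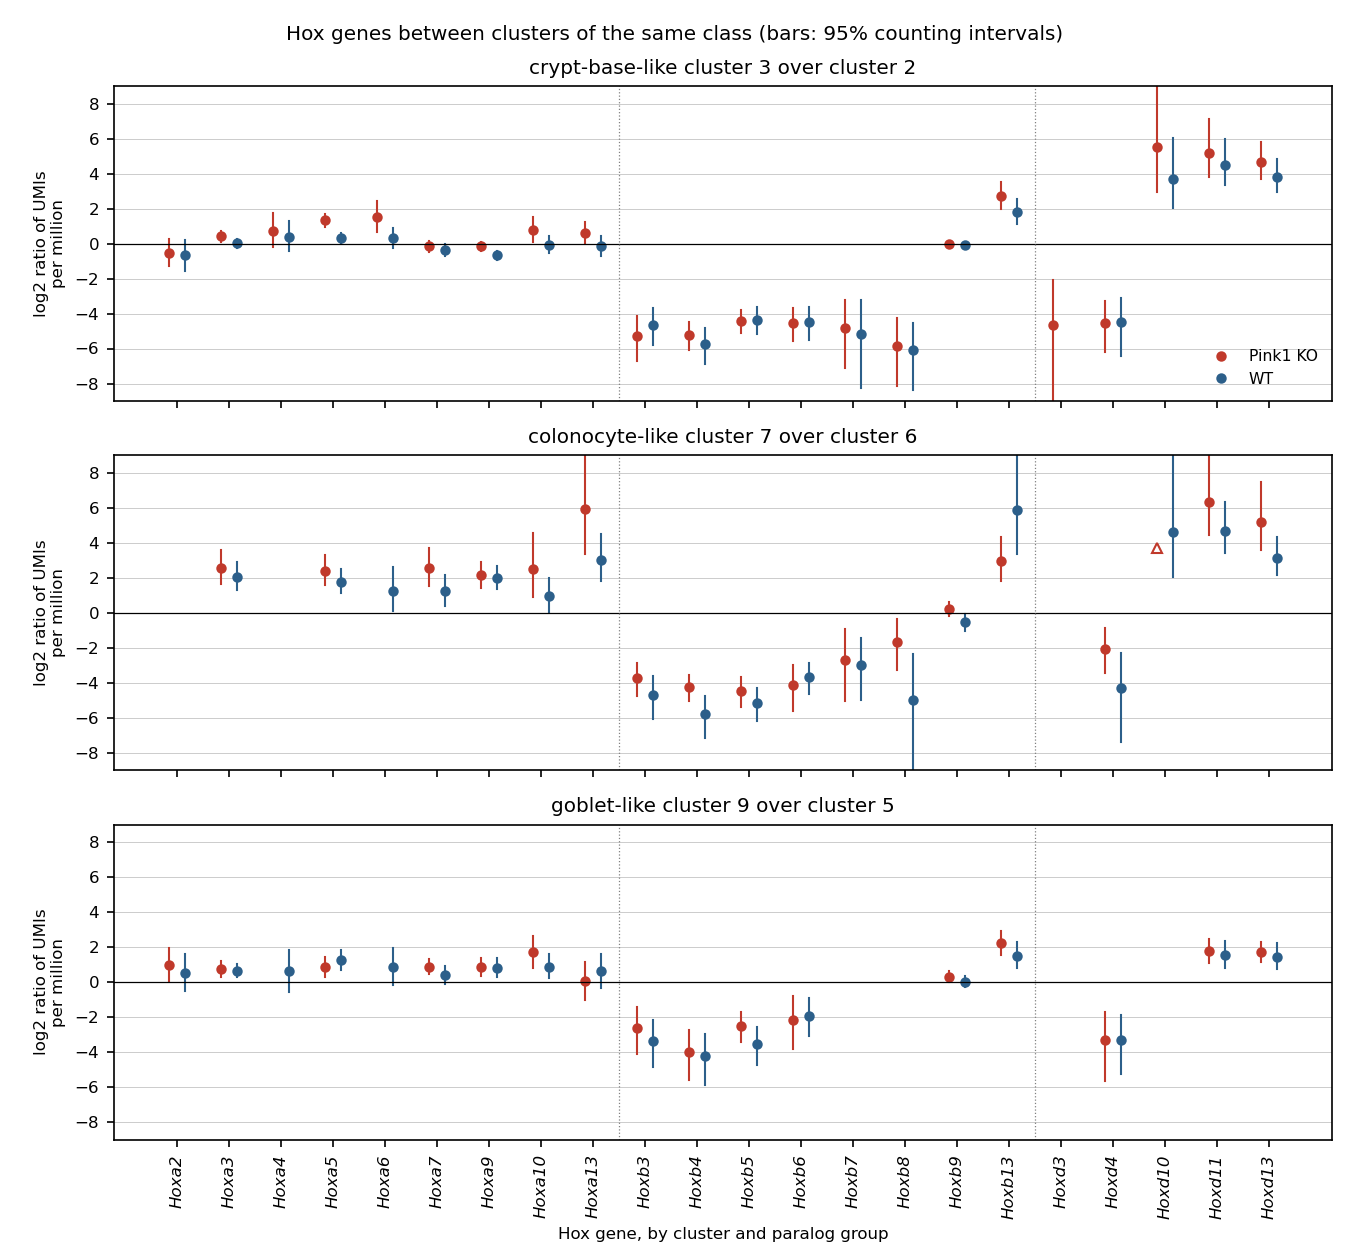
Log2 ratio of each member between 2 clusters of the same class, crypt-base 3 over 2, colonocyte 7 over 6 and goblet 9 over 5, with KO and WT points and 95% intervals (cut at the axis limits; the open triangle is a lower bound). Hoxb3 to Hoxb8 and Hoxd4 lie below 0 and Hoxb13, Hoxd10, Hoxd11 and Hoxd13 above 0 wherever they were measured, with Hoxb9 between them.

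Colonocyte clusters 7 and 6 repeated the split, and between them Hoxa genes were higher on the side of the second set. Of 18 members, 10 were at least 1.5-fold higher in cluster 7 than in cluster 6 in both libraries, against 12.1% of all genes, and 7 were lower, against 11.6%. Hoxb4 had 18.9 CPM in cluster 7 and 358 in cluster 6 of KO nuclei, and 6.39 and 357 in WT nuclei. Hoxd11 had 148 and 1.84 in KO nuclei, and 169 and 6.62 in WT nuclei. Hoxd10 had 32 UMIs in cluster 7 and 0 in cluster 6 of KO nuclei, at least 12.9-fold higher against the floor of 3 counts per cluster, and 35 and 1 in WT nuclei. Hoxa3, Hoxa5, Hoxa7 and Hoxa9 were higher in cluster 7 by 5.93, 5.30, 5.78 and 4.38 times in KO and by 4.18, 3.42, 2.35 and 3.94 times in WT nuclei. Hoxa13 had 50 UMIs in cluster 7 and 1 in cluster 6 of KO nuclei, and was 8.16 times higher in WT nuclei. Hoxb9 had a ratio of 1.15 (0.86 to 1.52) in KO and 0.68 (0.49 to 0.95) in WT nuclei. The third colonocyte cluster, 11, used the first set but was rich in Hoxa genes, which made up 47.0% of its Hox UMIs in KO and 60.7% in WT, against 42.4% and 50.4% in cluster 7 and 5.58% and 10.5% in cluster 6. Across the 3 colonocyte clusters Hoxa genes therefore did not go with the second set.

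Goblet clusters 9 and 5 differed in the same direction and by less for the second set. Of 16 members, 7 were at least 1.5-fold higher in cluster 9 in both libraries, against 16.8% of all genes, and 5 were lower, against 8.91%. Hoxb4 had a ratio of 0.063 in KO and 0.054 in WT nuclei, and Hoxd4 of 0.099 and 0.10. Hoxd11, Hoxd13 and Hoxb13 had ratios of 3.37, 3.26 and 4.65 in KO and 2.93, 2.75 and 2.85 in WT nuclei. Hoxb9 had 1.24 and 1.00. Cluster 5 contained nuclei of both sets, as its share of 18.7% and 14.5% shows.

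Single nuclei left after doublet removal showed the same separation. Hox genes were not left out of the doublet scores, so nuclei with both sets could have been removed. In the epithelium 37.8% of KO and 32.6% of WT nuclei had a UMI of the first set and 17.5% and 19.0% one of the second, yet only 1.88% and 1.90% had both. Among nuclei with a UMI of the second set, 10.8% in KO and 10.0% in WT had one of the first, against 43.5% and 37.9% of nuclei without. In immune nuclei, as a level that free RNA could reach, 9.90% in KO and 9.28% in WT had a UMI of the first set and 2.68% and 2.61% one of the second. The first set was about as frequent in epithelial nuclei with the second set as in immune nuclei, although the epithelial nuclei were deeper. Whether these UMIs are free RNA was not tested. Hoxb4 gave 40 of 82 first-set UMIs in KO and 19 of 46 in WT immune nuclei. In epithelium it gave 2788 of 9554 and 2199 of 7911, so the make-up of the set differed. Thinned to 500 UMIs, epithelial nuclei with the second set had the first in 5.67% and 4.24%, against 23.8% and 20.5% without. The shares in stroma and muscle ran otherwise. There the first set was found in 26.4% of KO and 28.2% of WT nuclei with the second set and in 13.7% and 16.1% of nuclei without, and after thinning in 7.64% and 12.2%, against 6.84% and 7.88%. Of the interstitial cells of Cajal, 23 of 69 in KO and 8 of 40 in WT had UMIs of both sets.

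Of 1833 KO and 1459 WT epithelial nuclei with at least 3 UMIs of the 2 sets, 81.2% and 80.3% held only the first set, 12.9% and 13.3% only the second, and 5.89% and 6.44% both. Without doublet removal, 8.03% and 8.50% of such epithelial nuclei held both. In stroma and muscle, with 99 and 70 such nuclei, 52.5% and 40.0% held both. The first set was scarce there. After thinning 6.93% of KO and 8.27% of WT nuclei of stroma and muscle had a UMI of it, against 5.36% and 4.35% of immune nuclei. For the compartment as a whole, holding both is therefore not read as expression of both. Of the nuclei with both, 18 in KO and 6 in WT were interstitial cells of Cajal, whose Hoxb4 lay well above its immune level. The immune level is not a floor, since KO fibroblast cluster 12 had Hoxb4 at 5.18 CPM, below the 74.8 of immune nuclei. By pairs of genes in the epithelium, Hoxb4 was found in 52.1% of KO and 56.4% of WT nuclei with Hoxb5, against 12.6% and 9.74% of nuclei without it. Hoxb4 was found in 4.26% and 2.63% of nuclei with Hoxd13, against 21.5% and 19.4% without. Hoxb4 and Hoxd4, which lie on different chromosomes, went together, with Hoxb4 in 53.9% and 63.7% of nuclei with Hoxd4, against 17.3% and 14.1% without. Hoxd11 was found in 29.2% and 30.5% of nuclei with Hoxd13, against 4.10% and 5.18% without. Hoxb9 was nearly as frequent with Hoxd13 as without, at 39.6% and 34.2% against 34.7% and 30.6%. Deeper nuclei show more genes of any kind, which raises every such share for nuclei with a UMI.

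The members in neither set could then be placed against them. In epithelial nuclei with only the second set (1352 in KO, 1178 in WT), Hoxa13 was 3.96 times as high in KO and 4.51 times in WT as in nuclei with only the first (3114 and 2113). Hoxa10 was 3.16 and 2.66 times as high, Hoxa5 2.90 and 2.33 times and Hoxa6 2.22 and 2.93 times. Hoxd9 was 16.2 (5.72 to 63.1) and 13 (3.91 to 67.4) times as high. The Hoxd9 values rest on only 31 and 4 UMIs in KO and 23 and 3 in WT. Hoxa9 at 1.49 and 1.54, Hoxa7 at 1.73 and 1.28 and Hoxa3 at 1.61 and 1.24 leaned the same way, while Hoxb9 had 0.97 and 0.82. Hoxa2 had 1.11 and 1.05 and Hoxa4 1.32 and 1.10, with intervals that include 1. Hoxb2 had 0 UMIs beside the second set and 29 beside the first in KO. These ratios pool all epithelial clusters, and over them no Hoxa gene was lower beside the second set. In crypt-base cluster 3 over cluster 2, Hoxa9 had 0.90 in KO and 0.63 (0.53 to 0.74) in WT. Hoxa7 had 0.89 and 0.77 (0.61 to 0.97) there, while Hoxa5 had 2.51 and 1.24. A fall of low-numbered genes as large as in the Hoxb and Hoxd clusters was not seen in the Hoxa cluster.

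Several other genes that follow position along the colon differed between the same clusters. Unlike the Hox genes, they were not left out of the clustering, so their ratios are a description and not a separate test. Slc10a2 is among the leading genes of cluster 6, and Slc37a2, Aqp8 and Car4 are among those of cluster 7. Aqp8 and Car4 are also markers by which colonocytes were named. Cdx2, an intestinal homeobox factor related to Hox genes, had 15.7 CPM in crypt-base cluster 3 and 75.4 in cluster 2 of KO nuclei, and 15.7 and 90.9 in WT nuclei. Cdx1 had ratios of 0.87 and 1.04. Tbx3 had 3.31 and 51.9 in KO nuclei and 0 and 56.6 in WT nuclei, and Osr2 had ratios of 0.14 and 0.033. Of genes known from proximal colon, Ces1f had ratios of 0.17 in KO and 0.24 in WT nuclei and Cyp2c55 0.50 and 0.25. Of genes known from distal colon, B3galt5 had 4.11 and 2.06 and Wfdc2 2.84 and 2.05, while Car4 had 0.51 (0.25 to 1.00) in KO and 0.71 (0.36 to 1.40) in WT. In colonocyte cluster 7 over cluster 6, the proximal bile acid carrier Slc10a2 had ratios of 0.013 and 0.044, and the distal genes Slc37a2 and Aqp8 had ratios of 102 and 71.0, and of 8.98 and 9.86. The distal gene Sct ran the other way there, with 0 UMIs in cluster 7 and 14 in cluster 6 of KO nuclei and 1 and 9 of WT nuclei. The labels do not say which stretch of the colon a nucleus came from, so position itself was not measured.

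Some regional genes went with the sets inside single clusters and others did not. In goblet cluster 5, Osr2 had 0 UMIs in nuclei with only the second set and 29 in those with only the first in the KO library, and 0 and 49 in the WT library. There the proximal gene Ang4 had 8 and 49 UMIs in KO and 0 and 31 in WT. The distal gene Sct lay on the side of the first set, with 0 and 9 UMIs in KO and 0 and 20 in WT, B3galt5 had ratios of 2.10 (1.41 to 3.09) in KO and 1.00 (0.59 to 1.64) in WT, and the proximal gene Cyp2c55 had 1.73 (0.66 to 4.30) in KO. In proliferating cluster 8, Ces1f had ratios of 0.32 in KO and 0.18 in WT nuclei, B3galt5 of 5.96 and 2.11, and Wfdc2 of 3.09 and 2.11. In proliferating cluster 13, B3galt5 had ratios of 4.05 and 3.53. Within these clusters, which were built without Hox genes, nuclei of the 2 sets thus differed in some of these genes only.

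Between genotypes the summed level of the Hox genes was close. The ratio of KO over WT was 0.93 (0.91 to 0.95) in all nuclei, 0.95 (0.93 to 0.96) in epithelium and 1.00 (0.92 to 1.08) in stroma and muscle. In all nuclei, 3 of 32 members with at least 20 UMIs were at least 1.5-fold higher in KO, against 6.97% of all genes, and 2 were at least 1.5-fold lower, against 7.65%. In epithelium 1 of 28 was higher, against 5.53%, and 2 were lower, against 8.51%. In stroma and muscle 2 of 26 were higher, against 8.7%, and 3 lower, against 8.57%. These counts are near the background in each compartment. The median log2 ratio of the members was 0.02 in all nuclei, -0.05 in epithelium and 0.07 in stroma and muscle, against -0.02, -0.04 and -0.01 over all genes.

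Hoxa6 and Hoxa10 were the 2 members lower in KO epithelium by more than 1.5-fold. Hoxa10 had 30.5 CPM in KO and 58.7 in WT epithelium, a ratio of 0.52 (0.46 to 0.58), and Hoxa6 had 15.1 and 28.1, a ratio of 0.54 (0.45 to 0.64). Hoxa10 was lower in KO in all 12 epithelial clusters with at least 20 of its UMIs, at ratios of 0.24 to 0.92, and Hoxa6 in all 10, at 0.32 to 0.93. The clusters share the same 2 libraries and are not replicates. In fibroblasts and smooth muscle Hoxa10 had ratios of 1.20 and 1.30. Other Hoxa genes of the epithelium lay on the same side, with ratios of 0.70 for Hoxa4, 0.73 for Hoxa3, 0.75 for Hoxa5, 0.81 for Hoxa9 and 0.82 for Hoxa13. Hoxa7, between Hoxa6 and Hoxa9 on the chromosome, had 1.07. Hoxb9 was higher in KO epithelium, with 282 CPM in KO and 231 in WT, a ratio of 1.22 (1.17 to 1.28), and Hoxd3 had 15.2 and 9.98, a ratio of 1.52 (1.22 to 1.90).

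**Figure D5:**
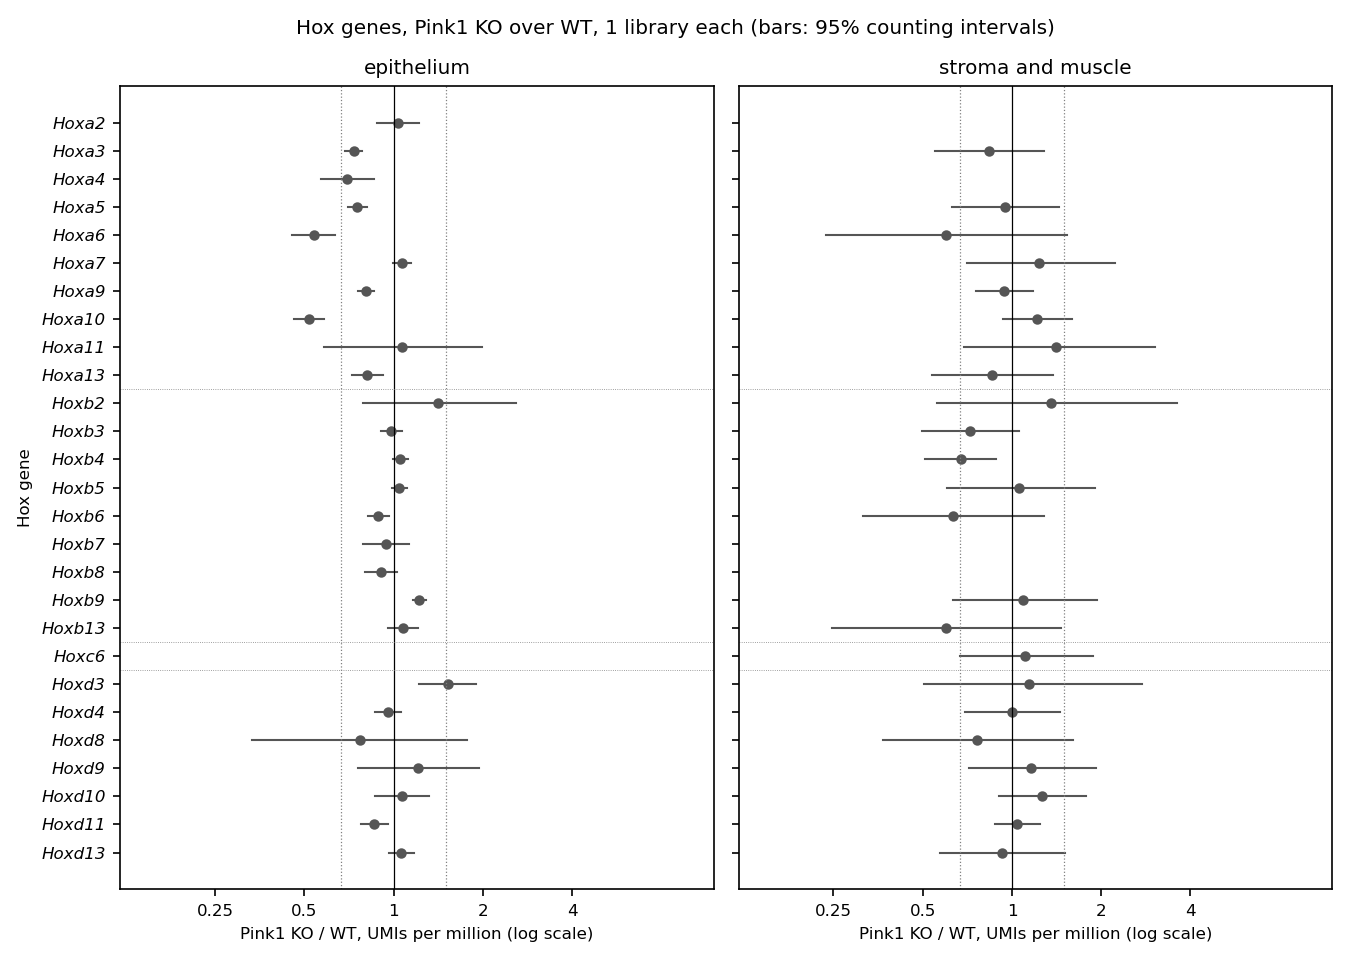
Ratio of KO over WT CPM for each member with at least 50 UMIs in all and 20 in the compartment, in epithelium (left) and in stroma and muscle (right), on a log axis with 95% counting intervals and dotted lines at 1.5-fold. Most members lie between the lines, Hoxa6 and Hoxa10 below them in epithelium, and no ratio has a replicate.

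By class, 3 of 21 members were at least 1.5-fold lower in KO goblet nuclei, against 11.6% of all genes, 2 of 22 in crypt-base nuclei, against 7.01%, and 7 of 21 in colonocytes, against 12.7%. The 7 in colonocytes were Hoxa3, Hoxa4, Hoxa6, Hoxa10, Hoxb13, Hoxd11 and Hoxd13. The make-up of the class differed beside this count. Cluster 7, which holds most of the second set, had 467 of 1670 KO and 531 of 1071 WT colonocytes. Cluster 11, which used the first set and was rich in Hoxa genes, had 531 in KO and 130 in WT. Whether make-up accounts for the count was not tested. Within cluster 7, Hoxd11 had a ratio of 0.87 (0.69 to 1.10), Hoxd13 of 0.95 (0.72 to 1.27) and Hoxb13 of 0.65 (0.44 to 0.95). There Hoxa10 had 0.58 (0.32 to 1.02), Hoxa6 0.52 (0.24 to 1.06) and Hoxa3 0.70 (0.50 to 0.97), about as low as in the whole class for Hoxa3, while Hoxa4 had 4 UMIs in KO and 5 in WT. Hoxc4 had 38 UMIs in KO and 11 in WT nuclei, a ratio of 2.76 (1.38 to 5.99), Hoxc8 32 and 13, and Hoxc9 25 and 11. Within stroma and muscle Hoxc4 and Hoxc9, the 2 members called higher there, had ratios of 1.92 (0.67 to 6.72) and 1.65 (0.71 to 4.30), and Hoxc8 had 1.40 (0.69 to 3.03). Within glia Hoxc4 had 2.74 (0.98 to 9.45). Stroma, muscle and glia, which hold most Hoxc UMIs, made up more of the KO nuclei, with 1429 and 96 of 10966 in KO and 810 and 60 of 8256 in WT.

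The protein families that work with Hox genes were also counted. Meis1 and Meis2, Hox cofactors, had 316 and 527 CPM in KO stroma and muscle and 273 and 506 in WT, but in epithelium 0.844 and 1.88 in KO and 1.40 and 0.702 in WT. Of 9 cofactors of the Pbx, Meis and Pknox families measured in epithelium, 3 were at least 1.5-fold higher in KO and 1 lower, against 5.53% and 8.51% of all genes there. The higher ones were Meis3 with 20.2 and 12.4 CPM, and Meis2 and Pbx4, which had only 29 and 9, and 16 and 6 UMIs. Of 19 Polycomb genes 0 were higher and 1, Cbx2, was lower, with 56 UMIs in KO and 70 in WT, and of 11 Trithorax genes none passed 1.5-fold in epithelium. Cdx1 had 95.7 in KO and 62.7 in WT epithelium, a ratio of 1.53 (1.40 to 1.66), and was the only one of 6 measured gut-position factors past 1.5-fold there.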

How the data were processed

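Single nuclei were sorted and read with a 10x 3′ kit, per the labels' protocols. The authors deposited UMI counts per gene and barcode. Per the file headers, Cell Ranger 6.1.2 made them. The submitters' processing notes name mm10 and GRCm38. Annotation release, intron counting and strand setting (not given in the sources used here) could change values of overlapping genes. All 39 Hox IDs and 32158 of all IDs (99.6%) matched GENCODE M21, whose GRCm38 coordinates and exon lengths were used. Promoters came from RefSeq.

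Nuclei with at least 500 UMIs, at least 300 genes and at most 10% mitochondrial UMIs were kept. Simulated doublets were used to remove 1180 KO (9.72%) and 632 WT (7.11%) barcodes at an assumed rate of 0.8% per 1000 nuclei. Hox genes were not left out of that step. Both libraries were clustered together on 2000 variable genes without Hox genes, 30 components, 20 neighbours and Leiden resolution 1. Clusters were named from fixed marker lists (at least 3 markers 2-fold up), and others stayed unnamed. Names may differ from the study's.

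UMIs were summed per library and class. CPM are UMIs per 1000000 nuclear UMIs, with exact Poisson, binomial (Clopper-Pearson) and conditional binomial 95% intervals. Ratios are given from 20 UMIs on. A member was called at 1.5-fold. All Hox genes were named, with class values from 50 UMIs on, and other genes only from lists. Some members of the gene sets are not reported here. Members and lists were chosen with earlier results of these data known. Alternatives changed the filter, doublets, resolution, variable genes and depth. Scripts were tested on simulated data. Python 3.11.15, numpy 2.4.6, scipy 1.17.1, pandas 2.3.3, scikit-learn 1.9.0, igraph 0.11.9, leidenalg 0.10.2 and matplotlib 3.10.9 were used.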

Additional observations from a re-analysis of the deposited data

How the results depend on the processing

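With 1 library per genotype, no value has a replicate, and shares rest on classes rebuilt from markers. Alternatives were looser and stricter filters, no doublet removal, Leiden resolutions of 0.5 and 2, Hox genes allowed among the variable genes, and thinning to 500 UMIs; resolutions were not run for the epithelial clusters. Of 124 summary comparisons 111 stayed within the main value's counting interval (for the count of clusters, within 1.5 times), and 2 single-gene ratios had no WT count left after thinning. The others were as follows. After thinning, the KO epithelium had 1765 Hox CPM and 38.4% from groups 9 to 13, the summed KO over WT ratio was 0.97 in all nuclei and 0.99 in epithelium, and nuclei with both sets among those with at least 3 set UMIs were 3.35% in KO and 0.510% in WT. Without doublet removal, stroma and muscle had 976 Hox CPM in KO and 968 in WT with 56.3% and 53.6% from groups 9 to 13, KO glia had 18.1%, and nuclei with both sets were 8.03% in KO and 8.50% in WT. The causes were not tested, except that thinning leaves fewer UMIs per nucleus. Of single-gene ratios 1311 stayed, 54 moved and 5 turned direction. After thinning, Hoxa6 had a ratio of 1.13 and Hoxb6 of 1.32 in stroma and muscle, and Hoxb9 of 0.60 in smooth muscle. In smooth muscle Hoxd13 had 1.31 under the stricter filter and 1.12 without doublet removal. The ratio in epithelium ranged over the alternatives from 0.40 to 0.53 for Hoxa10, 0.54 to 0.56 for Hoxa6, 1.34 to 1.53 for Hoxd3 and 1.21 to 1.27 for Hoxb9. No paired analysis was possible because each genotype has 1 library.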

Other observations

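Noncoding RNAs of the Hox clusters were measured beside the members. Hoxa11os, antisense to Hoxa11, had 416 CPM in KO and 459 in WT nuclei, a ratio of 0.91 (0.88 to 0.94), while Hoxa11 itself had 2.96 and 2.29. In epithelium Hoxa11os had 479 in KO and 513 in WT, and in stroma and muscle 127 and 120. It was higher in crypt-base cluster 3 than in cluster 2, at 876 and 399 CPM in KO and 856 and 551 in WT nuclei, and in colonocyte cluster 7 than in cluster 6, at 506 and 35.0 in KO and 426 and 64.9 in WT nuclei. Hoxa11os thus lay on the side of the group 10 to 13 set in both classes.

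Hottip, transcribed beyond Hoxa13, had 26.5 CPM in KO and 39.0 in WT nuclei, a ratio of 0.68, and was higher in colonocyte cluster 7 than in cluster 6 by 7.83 times in KO and 34.5 times in WT nuclei. Hoxb5os had 0 UMIs in crypt-base cluster 3 of both libraries and 19.5 CPM in KO and 18.0 in WT nuclei of cluster 2, beside Hoxb5 itself. Of 9 measured noncoding RNAs of the clusters, none passed 1.5-fold between genotypes in all nuclei. Of the proximal colon genes 1 of 6 was at least 1.5-fold higher in KO in all nuclei, and of the distal colon genes 2 of 7 were higher and 1, Slc37a2, was lower, against 6.97% higher and 7.65% lower over all genes.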
